A study of Mus musculus with 48 samples.

Results

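S100a4, S100a6, S100a10 and S100a11 encode small proteins of the S100 calcium-binding family. The 4 genes were taken by symbol from a table of 24537 genes, in which 16 symbols have the form of an S100 gene name (S100, a letter and, in most, a number). They are family members other than S100a8 and S100a9, the alarmins that neutrophils and monocytes release at sites of injury. RNA was counted by bulk sequencing of the 3′ ends of poly(A) transcripts in immune cells sorted from mouse colon tumours. The tumours were raised with the carcinogen azoxymethane (AOM) and with dextran sulfate sodium (DSS), an agent that damages the gut epithelium, and all samples are labelled day 85. The sort used the monocyte surface protein Ly6C and the antigen-presenting molecule MHC class II, and gave the populations Ly6Chi MHCIIlo, Ly6Chi MHCIIhi, Ly6Clo MHCIIhi and Ly6Clo MHCIIlo. Each population came from mice labelled ctrl and mice labelled ko, where the knocked-out gene of the series is Ccl17, a chemokine of dendritic cells.

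Every group shared the AOM and DSS treatment, and the 8 groups differed by sorted population and by genotype. Ly6Chi MHCIIlo, Ly6Chi MHCIIhi and Ly6Clo MHCIIlo had 4 replicates labelled ctrl and 4 labelled ko each, and Ly6Clo MHCIIhi had 8 of each. In 1 Ly6Chi MHCIIhi ctrl replicate the library was too shallow to use, which left 3 in that group and 39 replicates in all. The series names ko animals housed with controls and ko animals housed apart, but housing, strain, sex and age are not given per sample. The labels do not state whether each replicate is another animal. The p-values therefore speak of the spread among these samples only, and that spread may be technical.

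An S100 protein works as a pair of short chains that opens a binding face, in most members when calcium is bound, and then grips a partner protein. S100A4 binds the heavy chain of non-muscle myosin and is known for a role in cell movement. S100A6, also called calcyclin, binds annexins and the calcyclin-binding protein encoded by Cacybp. S100A10, or p11, does not respond to calcium, joins annexin A2 in a complex at the plasma membrane, and holds plasminogen and its activator at the cell surface. S100A11 binds annexin A1 and takes part in membrane repair. In the gut, Ly6Chi blood monocytes enter the tissue, gain MHC class II and then lose Ly6C as they become macrophages, and monocytes are known to carry more S100A4 and S100A6 transcript than resident macrophages.

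All 4 genes lie on the plus strand of chromosome 3, in 2 pairs of neighbours (GRCm38, GENCODE release M21). S100a4 spans chr3:90603771-90606045 and S100a6 spans chr3:90612882-90624181, with S100a5 between them. S100a11 spans chr3:93520488-93526287 and S100a10 spans chr3:93555080-93564643, which leaves 28793 bases between these 2 genes and no other protein-coding gene. The annotated gene Gm42674 overlaps S100a4 on the same strand and is not analysed here, so counts at S100a4 cannot be split between them. The promoters are shown because the 4 transcripts moved together across samples, as described further on. A window from 250 bases before to 30 bases after the RefSeq start (GRCm38.p6, plus strand) was found for 3 of the 4 genes, S100a4 (chr3:90603520-90603799), S100a6 (chr3:90612644-90612923) and S100a11 (chr3:93520246-93520525). Capitals mark matches to the motifs searched on both strands, and each line runs 5′ to 3′.
S100a4: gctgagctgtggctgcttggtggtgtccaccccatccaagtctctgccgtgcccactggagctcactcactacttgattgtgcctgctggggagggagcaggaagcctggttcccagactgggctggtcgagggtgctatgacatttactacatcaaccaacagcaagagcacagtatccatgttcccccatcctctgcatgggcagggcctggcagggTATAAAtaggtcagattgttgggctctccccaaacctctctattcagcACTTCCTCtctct
S100a6: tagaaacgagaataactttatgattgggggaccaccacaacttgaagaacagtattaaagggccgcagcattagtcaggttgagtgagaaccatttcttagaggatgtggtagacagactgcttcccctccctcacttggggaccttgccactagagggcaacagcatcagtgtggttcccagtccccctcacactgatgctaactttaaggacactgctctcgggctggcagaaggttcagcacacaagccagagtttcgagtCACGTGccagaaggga
S100a11: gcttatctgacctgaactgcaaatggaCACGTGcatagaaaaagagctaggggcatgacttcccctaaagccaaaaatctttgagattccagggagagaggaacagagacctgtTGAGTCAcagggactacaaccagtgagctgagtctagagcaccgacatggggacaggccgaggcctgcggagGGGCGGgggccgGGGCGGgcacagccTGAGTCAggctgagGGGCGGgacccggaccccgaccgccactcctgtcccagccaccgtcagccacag

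The S100a4 window holds a TATA box (TATAAA) whose first base lies at -31 from the start, a motif found in 13.1% of all 32851 windows of this length. It also holds ACTTCCTC, the reverse complement of the PU.1 motif GAGGAAGT, from position 18 after the start, and 2.82% of windows hold that motif. The S100a6 window holds the E-box CACGTG at position 15 after the start, which 6.79% of windows hold. The S100a11 window holds the AP-1 motif TGAGTCA at -136 and -38 (4.94% of windows), the GC box GGGCGG at -64, -52 and -24 (34.7%) and CACGTG at -223. The C/EBP motif TTGCNNAA, in 10.4% of windows, has no match in these 3 windows. Thus no motif of this search was shared by all 3, and only CACGTG was shared by 2 of them. The GC content was 55.7% for S100a4, 50.7% for S100a6 and 60.7% for S100a11, beside a median of 52.5% over all windows.

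Totals ran from 34362 to 891461 counts per kept replicate, and 4 kept replicates had under 100000. Levels are given as CPM (counts per 1000000) over library sizes scaled across all 39 replicates, and since reads come from 3′ ends the levels of different genes are not compared. The sort was visible in its own genes. Ly6c2 averaged 1226 CPM in Ly6Chi MHCIIlo, 497 in Ly6Chi MHCIIhi, 26.3 in Ly6Clo MHCIIhi and 41.4 in Ly6Clo MHCIIlo, while Cd74, the invariant chain of MHC class II, averaged 1858, 9660, 13864 and 2471 CPM in the same order. The genotype label was visible less clearly, since Ccl17 in Ly6Clo MHCIIhi was 0 to 764 CPM (median 55.5) in ctrl and 0 to 7.47 (median 3.48) in ko, a difference that gave p = 0.0331 by a two-sided exact permutation test and 0.132 after adjustment over 4 populations, and in the other populations it was at most 26.5 CPM in any replicate. In 1 library, Ly6Chi MHCIIhi ctrl replicate 1, genes of red cells took 23.9% of the scaled total and genes of neutrophils 6.22%. The main population and genotype differences of the 4 genes that use it are therefore given with and without it. The base composition of the library barcode also went with genotype, with A/T-rich barcodes in ctrl and G/C-rich ones in ko in 3 populations, so the 2 cannot be told apart there.

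S100a4 was highest in Ly6Chi MHCIIlo and lowest in Ly6Clo MHCIIlo. In Ly6Chi MHCIIlo it was 1256, 874, 1351 and 1136 CPM in ctrl replicates 1 to 4 and 1567, 979, 1227 and 1532 CPM in ko. In Ly6Chi MHCIIhi it was 26.5, 707 and 509 CPM in ctrl replicates 1, 3 and 4 and 990, 650, 795 and 838 CPM in ko. The lowest of these values rests on 2 counts and belongs to the library rich in red cell and neutrophil transcripts. In Ly6Clo MHCIIhi, ctrl ran from 179 to 422 CPM (median 239, n = 8) and ko from 137 to 494 CPM (median 294, n = 8). In Ly6Clo MHCIIlo it was 150, 197, 116 and 154 CPM in ctrl and 186, 141, 195 and 191 CPM in ko. No replicate of either Ly6Clo population reached the lowest Ly6Chi MHCIIlo replicate, and population means were 1240 ± 244 (SD, n = 8), 645 ± 312 (n = 7), 288 ± 95.6 (n = 16) and 166 ± 30.1 CPM (n = 8) in the order in which they are listed here.

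S100a6 followed the same split between Ly6Chi and Ly6Clo cells, but did not separate the 2 Ly6Clo populations. Ly6Chi MHCIIlo held 4258, 3478, 4355 and 4362 CPM in ctrl and 5085, 4118, 4748 and 6361 CPM in ko. Ly6Chi MHCIIhi held 968, 2738 and 2667 CPM in ctrl replicates 1, 3 and 4 and 3591, 2931, 3119 and 3551 CPM in ko. Ly6Chi MHCIIhi overlapped both Ly6Clo populations through ctrl replicate 1, and overlapped Ly6Chi MHCIIlo by its highest replicates. Its other replicates began at 2667 CPM, beside a highest Ly6Clo value of 2558 CPM, and the share of genes with such a gap was not counted. Ly6Clo MHCIIhi ran from 904 to 1969 CPM (median 1630) in ctrl and from 1326 to 1996 CPM (median 1646) in ko. Ly6Clo MHCIIlo held 1095, 2246, 1106 and 1396 CPM in ctrl and 1741, 1561, 2558 and 1650 CPM in ko. These ranges overlapped, with means of 1574 ± 311 CPM (SD, n = 16) in Ly6Clo MHCIIhi and 1669 ± 516 CPM (n = 8) in Ly6Clo MHCIIlo, against 4596 ± 852 CPM (n = 8) in Ly6Chi MHCIIlo and 2795 ± 884 CPM (n = 7) in Ly6Chi MHCIIhi.

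S100a10, the annexin A2 partner, was again highest in Ly6Chi MHCIIlo. There it was 1137, 1129, 1258 and 1328 CPM in ctrl and 2055, 1360, 1950 and 1905 CPM in ko. In Ly6Chi MHCIIhi it was 212, 817 and 983 CPM in ctrl replicates 1, 3 and 4 and 1372, 1144, 1521 and 1254 CPM in ko. In both Ly6Chi populations each ko replicate was above each ctrl replicate, as was so for 3.18% of genes in Ly6Chi MHCIIlo and 10.7% in Ly6Chi MHCIIhi, and the test of that difference is given with the genotypes. In Ly6Clo MHCIIhi it ran from 279 to 693 CPM (median 552) in ctrl and from 346 to 584 CPM (median 496) in ko. In Ly6Clo MHCIIlo it was 342, 457, 351 and 417 CPM in ctrl and 484, 462, 432 and 422 CPM in ko. The 8 values of Ly6Clo MHCIIlo lay within the range of Ly6Clo MHCIIhi, and the population means were 1515 ± 387 (SD, n = 8), 1043 ± 435 (n = 7), 500.1 ± 115 (n = 16) and 421 ± 51.1 CPM (n = 8), from Ly6Chi MHCIIlo to Ly6Clo MHCIIlo.

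S100a11, the annexin A1 partner, had the smallest fold difference of the 4 genes in 5 of the 6 pairs of populations, the exception being the 2 Ly6Clo populations, where that of S100a10 was smaller. Ly6Chi MHCIIlo held 1755, 1648, 1293 and 1694 CPM in ctrl and 2212, 1611, 2314 and 2466 CPM in ko. Ly6Chi MHCIIhi held 756, 1413 and 1305 CPM in ctrl replicates 1, 3 and 4 and 1898, 1750, 1876 and 1876 CPM in ko. The ko replicates of Ly6Chi MHCIIhi lay close together and within the range of Ly6Chi MHCIIlo. Ly6Clo MHCIIhi ran from 662 to 1320 CPM (median 1070) in ctrl and from 759 to 1383 CPM (median 1005) in ko. Ly6Clo MHCIIlo held 810, 1080, 774 and 1043 CPM in ctrl and 1059, 1061, 1711 and 1014 CPM in ko. Both Ly6Clo populations overlapped Ly6Chi MHCIIlo at its lower end, and the means were 1874 ± 408 (SD, n = 8), 1553 ± 425 (n = 7), 1057 ± 210 (n = 16) and 1069 ± 285 CPM (n = 8) from Ly6Chi MHCIIlo to Ly6Clo MHCIIlo.

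**Figure D1:**
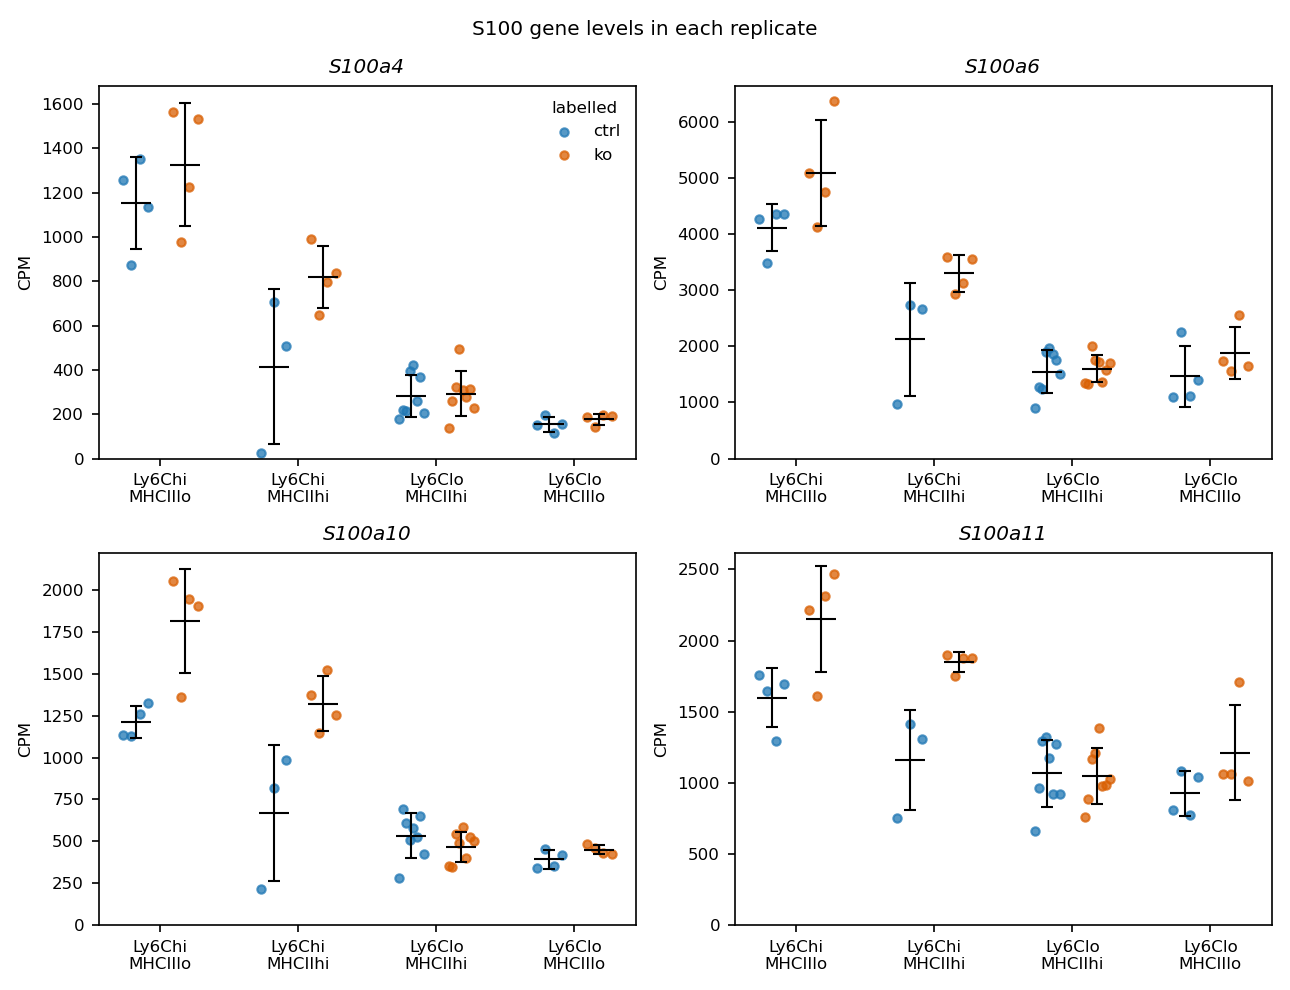
Level in CPM of S100a4, S100a6, S100a10 and S100a11 (linear axes from 0) in every replicate of the 4 sorted populations, ctrl in blue and ko in orange, with horizontal bars for the mean and whiskers for the SD. Ly6Chi MHCIIlo is highest for each gene, and the lowest Ly6Chi MHCIIhi point in every panel is ctrl replicate 1.

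Differences between populations were tested with edgeR's quasi-likelihood test, with genotype in the model and Benjamini-Hochberg adjustment over all genes tested, and an adjusted p under 0.05 counted as past the threshold. Ly6Clo MHCIIlo cells had less of all 4 transcripts than Ly6Chi MHCIIlo cells, and in that comparison 18.2% of 4336 genes passed in the same direction. S100a4 was 6.66-fold lower, a log2 difference of -2.74 (SE 0.14, adjusted p = 4.86e-13). S100a6 was lower by a log2 difference of -1.29 (SE 0.15, adjusted p = 2.84e-07). S100a10 was lower by -1.66 (SE 0.12, adjusted p = 8.43e-11) and S100a11 by -0.64 (SE 0.13, adjusted p = 0.000487). The replicates of the 2 populations did not overlap for S100a4, S100a6 and S100a10, which was so for 6.87% of genes in this direction, and they overlapped for S100a11. All 4 calls held in ctrl replicates with A/T-rich barcodes alone, with log2 differences of -2.75, -1.32, -1.47 and -0.62, and in ko replicates with G/C-rich barcodes alone, with -2.70, -1.24, -1.83 and -0.64.

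Ly6Clo MHCIIhi cells also had less of all 4 transcripts than Ly6Chi MHCIIlo cells, where 21% of 5702 genes passed in that direction. The log2 difference was -2.11 for S100a4 (SE 0.15, adjusted p = 1.41e-12) and -1.54 for S100a6 (SE 0.10, adjusted p = 4.13e-13). For S100a10 it was -1.61 (SE 0.14, adjusted p = 4.90e-11) and for S100a11 -0.82 (SE 0.12, adjusted p = 1.50e-06). In fold terms S100a4 was 4.31-fold, S100a6 2.92-fold, S100a10 3.04-fold and S100a11 1.77-fold lower. Again S100a4, S100a6 and S100a10 did not overlap between the 2 populations, beside 2.84% of genes, and all 4 calls held within each genotype and its barcode class. These are bulk samples, so fewer cells that carry a transcript and less RNA per cell cannot be told apart.

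Against Ly6Chi MHCIIhi, both Ly6Clo populations were lower for all 4 genes. For Ly6Clo MHCIIhi the log2 differences were -1.19 for S100a4 (SE 0.25, adjusted p = 0.00116), -0.87 for S100a6 (SE 0.15, adjusted p = 8.43e-05), -1.12 for S100a10 (SE 0.19, adjusted p = 0.000128) and -0.62 for S100a11 (SE 0.14, adjusted p = 0.00283), beside 7.45% of 5541 genes lower. For Ly6Clo MHCIIlo they were -1.83 for S100a4 (SE 0.29, adjusted p = 0.000137), -0.67 for S100a6 (SE 0.21, adjusted p = 0.0273), -1.19 for S100a10 (SE 0.20, adjusted p = 0.000243) and -0.47 for S100a11 (SE 0.17, adjusted p = 0.0445), beside 11.8% of 4175 genes lower. Without ctrl replicate 1 of Ly6Chi MHCIIhi the same differences were -1.39, -1.0, -1.31 and -0.70 for Ly6Clo MHCIIhi and -2.04, -0.78, -1.37 and -0.52 for Ly6Clo MHCIIlo, all past the threshold. Over the leave-outs of 1 replicate, 698 to 1002 genes passed in either direction for Ly6Clo MHCIIhi and 756 to 1257 for Ly6Clo MHCIIlo. For Ly6Clo MHCIIhi the call for S100a11 was lost with no filter on low counts (adjusted p = 0.076) and that for S100a4 with the replicate number as a block (adjusted p = 0.0514). In the comparison with Ly6Clo MHCIIlo the call for S100a11 was lost in 12 of 15 leave-outs of 1 replicate (adjusted p up to 0.117) and held without Ly6Chi MHCIIhi ctrl replicate 1, Ly6Clo MHCIIlo ctrl replicate 2 or Ly6Clo MHCIIlo ko replicate 3. The call for S100a6 was lost in 8 of 15 (adjusted p up to 0.0788), among them those without Ly6Chi MHCIIhi ctrl replicate 3 or 4. In ctrl replicates with A/T-rich barcodes alone no call of either comparison remained. The log2 differences there were -0.71, -0.73, -0.55 and -0.38 for Ly6Clo MHCIIhi and -1.46, -0.62, -0.85 and -0.45 for Ly6Clo MHCIIlo. These fits had 3 Ly6Chi MHCIIhi replicates, among them ctrl replicate 1, and were not run without it. In ko replicates with G/C-rich barcodes alone the log2 differences were -1.34, -1.02, -1.41 and -0.72 for Ly6Clo MHCIIhi, all past the threshold. For Ly6Clo MHCIIlo they were -2.02, -0.63, -1.38 and -0.43, of which the last did not pass (adjusted p = 0.0777).

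Within Ly6Chi cells the order pointed from MHCIIlo to MHCIIhi, but most of the differences did not pass. S100a6 was lower in Ly6Chi MHCIIhi by a log2 difference of -0.65 (SE 0.18, adjusted p = 0.0473), where 1.53% of 4756 genes passed in that direction, and this call was lost in 13 of 15 leave-outs (adjusted p up to 0.11) and held without Ly6Chi MHCIIhi ctrl replicate 1 or 3. By DESeq2 S100a4, S100a6 and S100a10 passed (adjusted p of 0.0161, 0.000344 and 0.0285), and the share of all genes that DESeq2 called there is not given here. S100a4 differed by -0.94 (SE 0.30, adjusted p = 0.0989), S100a10 by -0.52 (SE 0.20, adjusted p = 0.173) and S100a11 by -0.20 (SE 0.15, 95% interval -0.51 to 0.11, adjusted p = 0.58). Without ctrl replicate 1 of Ly6Chi MHCIIhi, S100a4 passed at -0.73 (adjusted p = 0.00482) and S100a6 at -0.54 (adjusted p = 0.00352), and S100a10 at -0.38 (adjusted p = 0.0767) and S100a11 at -0.15 did not. Thus a difference in S100a4 and S100a6 between the Ly6Chi populations passed with that library left out, at a smaller size. Over the leave-outs of 1 replicate, 71 to 220 genes passed in this comparison in either direction. The share of all genes that passed without that library alone is not given here.

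Within Ly6Clo cells S100a4 passed and the other 3 genes did not, and whether the genes differed in this was not tested. S100a4 was 1.60-fold higher in MHCIIhi than in MHCIIlo, a log2 difference of 0.68 (SE 0.18, adjusted p = 0.0061), where 11.9% of 4817 genes passed in that direction. The call held in all 24 leave-outs and in ko replicates with G/C-rich barcodes (0.70, adjusted p = 0.0422), and in ctrl replicates with A/T-rich barcodes the difference was 0.75 (adjusted p = 0.0809). S100a6 differed by -0.21 (95% interval -0.49 to 0.08), S100a10 by 0.11 (-0.16 to 0.39) and S100a11 by -0.13 (-0.41 to 0.14), with adjusted p of 0.287, 0.571 and 0.505. The ratio of S100a4 to S100a11 within a sample also varied between populations. Its log2 value was -0.59 ± 0.31 (SD) in Ly6Chi MHCIIlo, -1.66 ± 1.27 in Ly6Chi MHCIIhi, -1.91 ± 0.34 in Ly6Clo MHCIIhi and -2.65 ± 0.26 in Ly6Clo MHCIIlo. In Ly6Chi MHCIIhi it was -1.19 ± 0.19 without ctrl replicate 1, where it was -4.52. The log2 ratio of S100a6 to S100a10 had population means between 1.51 and 1.93, and 1.41 in Ly6Chi MHCIIhi without ctrl replicate 1. Differences between these ratios were not tested.

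**Figure D2:**
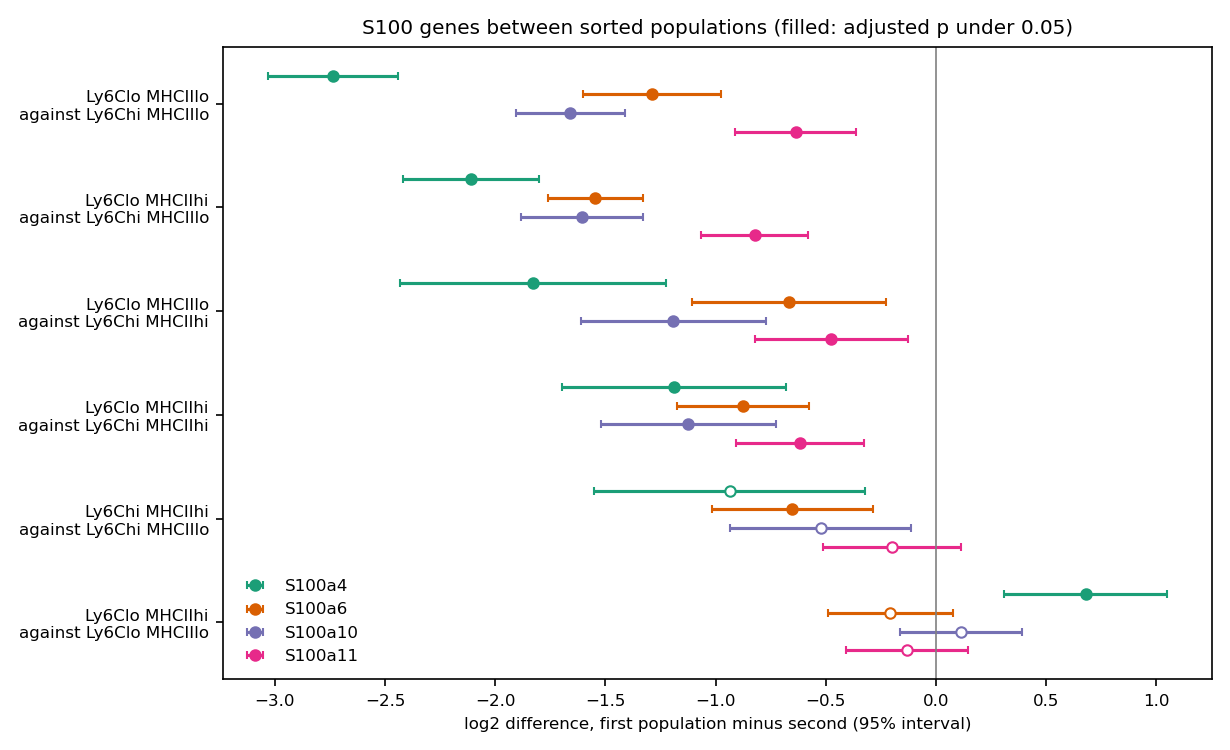
Log2 difference (x axis, first population minus second) of each S100 gene in the 6 pairs of populations, with 95% intervals and filled points for an adjusted p under 0.05. All Ly6Clo against Ly6Chi points lie left of 0, with S100a4 leftmost in each such pair and S100a11 rightmost, and among Ly6Clo cells only S100a4 passed, at 0.68.

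Genes of other cell types moved across the same samples. The 12 classical monocyte genes summed to 7764 to 12000 CPM in Ly6Chi MHCIIlo and to 1557 to 3046 CPM in both Ly6Clo populations, and 11 tissue macrophage genes ran the other way, from 3342 to 7707 CPM in Ly6Chi MHCIIlo up to 18269 to 51847 CPM in Ly6Clo MHCIIhi. The 12 neutrophil genes summed to 6263 to 20517 CPM in Ly6Chi MHCIIlo and 5804 to 28553 CPM in Ly6Clo MHCIIlo, against 453 to 2009 CPM in Ly6Clo MHCIIhi. The lowest population mean of S100a4 and of S100a10 was in Ly6Clo MHCIIlo, and that of S100a6 and of S100a11 was in Ly6Clo MHCIIhi. In Ly6Chi MHCIIhi the neutrophil sum was 624 to 2180 CPM except in ctrl replicate 1 (62214 CPM). Of the 12 neutrophil genes, Ly6g was at 0 in 17 of 39 replicates and Cxcr2 in 10. S100a8, S100a9, Csf3r, Retnlg and Mmp9 were above 0 in all 39, and the rest were at 0 in 1 to 5. S100a8 and S100a9 count in the neutrophil sum and also in that of the other S100 family genes. Of 11 neutrophil genes tested between the MHCIIlo populations, 4 were higher in Ly6Clo and 2, Camp and Ngp, were lower. The shares of all genes there were 19.3% higher and 18.2% lower. S100a4 is also known as a fibroblast transcript, and the 9 fibroblast genes summed to at most 200.4 CPM in any replicate. Of 39 replicates, the number at 0 ran from 19 (Sparc) and 21 (Dcn) to 36 (Pdgfra) and 38 (Lum). The parts of neutrophils and of fibroblasts in the S100 levels were not tested.

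**Figure D3:**
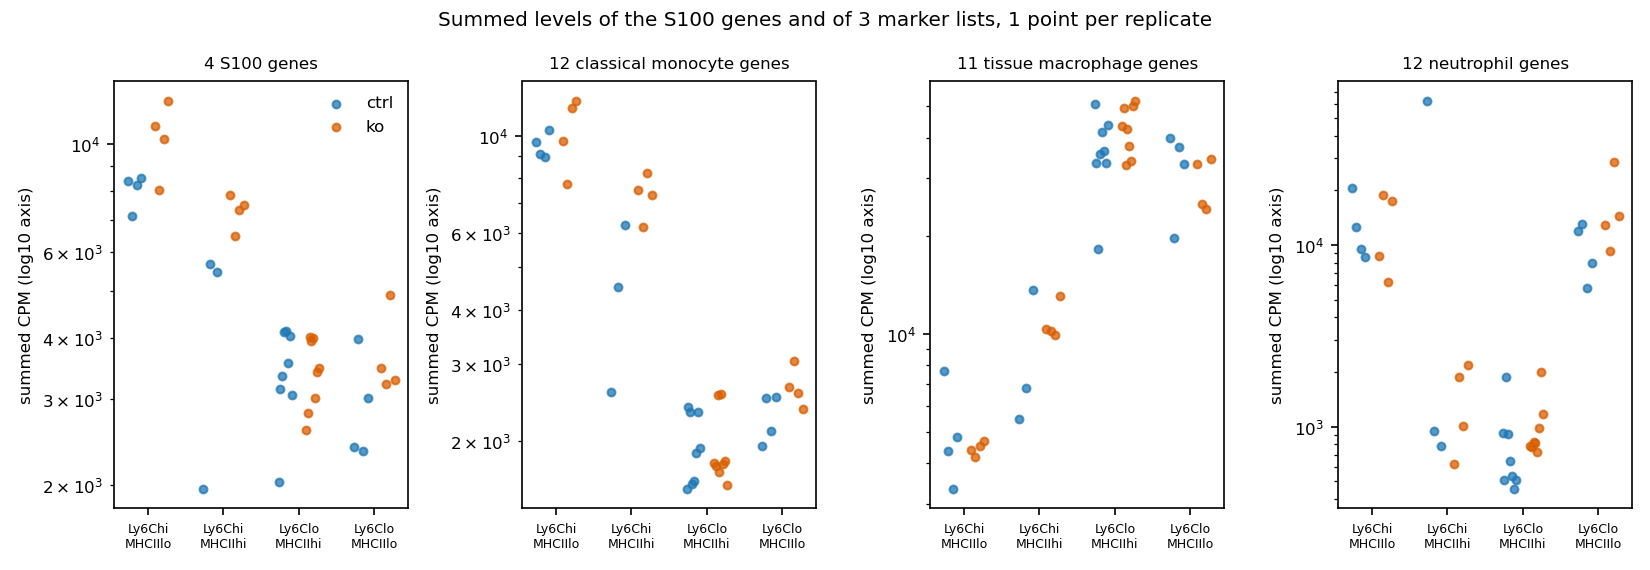
Summed CPM (log10 axes) of the 4 S100 genes and of 3 marker lists in each replicate, ctrl in blue and ko in orange. The S100 sum falls from Ly6Chi MHCIIlo to the Ly6Clo populations as the monocyte sum does, while the neutrophil sum is high in both MHCIIlo populations and reaches 62214 CPM in 1 Ly6Chi MHCIIhi ctrl replicate.

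Across the 39 replicates the 4 genes rose and fell together, which is given as a description since the replicates share populations and depth. Pearson's r of log2(CPM + 1) ran from 0.84 (S100a4 with S100a11) to 0.92 (S100a6 with S100a10), and after subtracting each group's mean from 0.65 to 0.81. Without the library rich in red cell transcripts the within-group values were 0.61 to 0.72. Among 3834 genes of at least 50 CPM in some group, those most like S100a4 were Wfdc17 (r = 0.92), S100a10 (0.92), Vim (0.92), Ifitm3 (0.91) and Fxyd5 (0.91). For S100a6 they were S100a10 (0.92), Mrpl33 (0.92), Thbs1 (0.91), S100a11 (0.91) and Mefv (0.90). S100a10 was most like Srgn (0.95), Ltb4r1 (0.93), Vim (0.93), S100a6 (0.92) and Plac8 (0.92), and S100a11 like S100a6 (0.91), S100a10 (0.90), Srgn (0.90), Ltb4r1 (0.89) and Tgm2 (0.88). Thus S100a6 and S100a10, and S100a6 and S100a11, ranked among each other's 5 nearest genes. S100a4 was not among the 5 nearest of any other member.

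The known partners of the 4 proteins divided into those that tracked them and those that did not. Anxa2, the annexin of the S100A10 complex, averaged 990 CPM in Ly6Chi MHCIIlo, 563 in Ly6Chi MHCIIhi, 277 in Ly6Clo MHCIIhi and 376 in Ly6Clo MHCIIlo. Ahnak, a large scaffold protein that the complex binds at the membrane, averaged 1473, 578, 265 and 337 CPM. S100a10 correlated with Anxa2 at r = 0.89 and with Ahnak at 0.87 over 39 replicates, and at 0.67 and 0.58 within groups once the library rich in red cell transcripts was left out. This was not particular to S100a10, as Anxa2 had an r of 0.89 with S100a6, 0.86 with S100a4 and 0.84 with S100a11. Within groups and without that library the r of Anxa2 with these genes was 0.48, 0.49 and 0.57. Anxa2 was lower than in Ly6Chi MHCIIlo by a log2 difference of -1.86 in Ly6Clo MHCIIhi (SE 0.15, adjusted p = 1.13e-11) and of -1.24 in Ly6Clo MHCIIlo (SE 0.15, adjusted p = 3.08e-07). Ahnak was lower by -2.51 (SE 0.17, adjusted p = 4.13e-13) and -1.97 (SE 0.16, adjusted p = 8.37e-10). Cacybp, the partner of S100A6, ran at 67.5 to 89.2 CPM in the population means, and its r with S100a6 was -0.11. Myh9, the heavy chain bound by S100A4, had an r of 0.23 with S100a4, and Anxa1, the partner of S100A11, one of 0.20 with S100a11. Without the same library these were -0.05, 0.17 and 0.25.

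**Figure D4:**
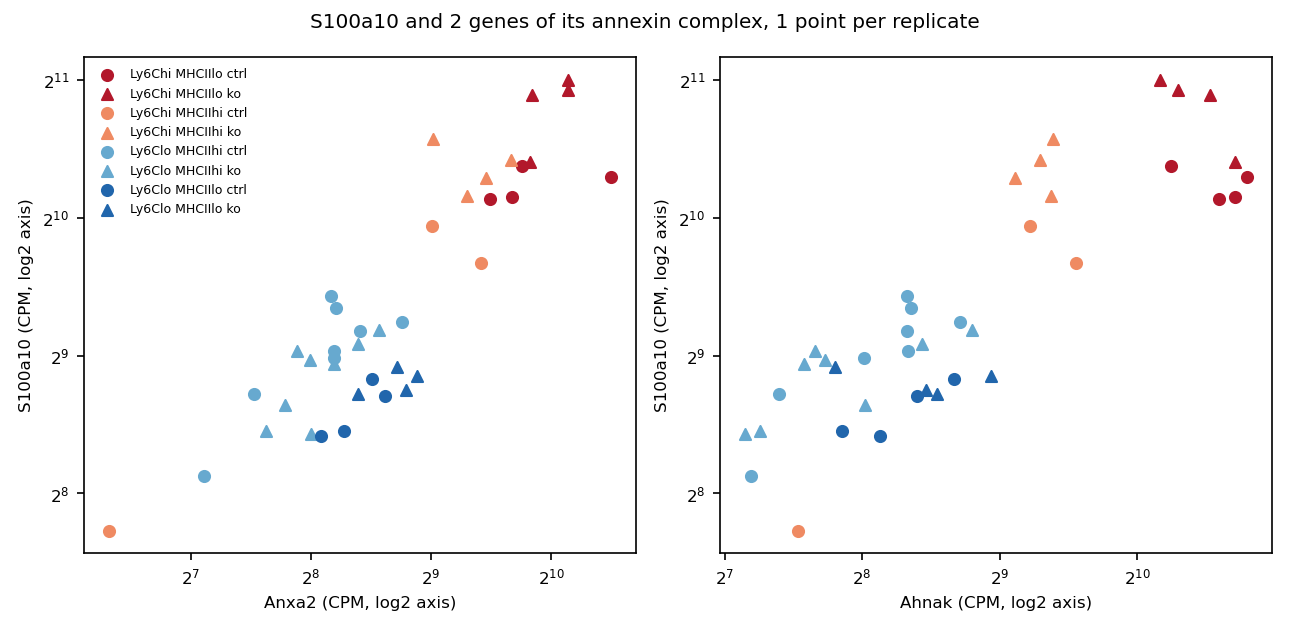
S100a10 against Anxa2 (left) and Ahnak (right), CPM on log2 axes, 1 point per replicate coloured by population, circles for ctrl and triangles for ko. Ly6Chi points lie at the upper right and Ly6Clo points at the lower left of both panels, with the exception of Ly6Chi MHCIIhi ctrl replicate 1 at 212 CPM of S100a10.

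Lists of related genes showed mixed directions beside the 4 genes. In Ly6Clo MHCIIhi against Ly6Chi MHCIIlo, where 21% of all genes were lower and 21.3% higher, 4 of 7 tested annexins were lower and 1 was higher (median log2 difference -0.42, beside 0.01 over all genes). Anxa1 (-1.56, adjusted p = 2.48e-09) and Anxa7 (-0.78, adjusted p = 0.000185) fell with Anxa2, and Anxa3 rose (1.08, adjusted p = 9.02e-05). Beside the same 21% and 21.3%, 7 of 12 tested binding partners were lower and 1 was higher (median -0.30), with Myh9 at -0.75 (adjusted p = 9.26e-06) and Iqgap1, a scaffold of the actin network, at -0.66 (adjusted p = 1.54e-05) beside Ahnak, and Hltf higher at 0.81 (adjusted p = 0.00912). In Ly6Clo MHCIIlo against Ly6Chi MHCIIlo, where 18.2% of all genes were lower and 19.3% higher, 1 of 7 annexins was lower (Anxa2) and 2 were higher (median -0.17, beside 0.05 over all genes), Anxa4 by 1.24 (adjusted p = 5.52e-05) and Anxa3 by 1.28 (adjusted p = 0.000314). Beside the same 18.2% and 19.3%, 6 of 11 binding partners were lower and none was higher (median -0.38), Myl12a by -0.46 (adjusted p = 0.003) and Capzb by -0.43 (adjusted p = 0.00427) among them. Between the 2 Ly6Clo populations 4 of 7 annexins were lower in MHCIIhi and none was higher, beside 13.6% and 11.9% of all genes, among them Anxa1 (-1.34) and Anxa2 (-0.57), while S100a4 was higher. Between the 2 Ly6Chi populations Anxa1 (-1.01, adjusted p = 0.025) and Ahnak (-1.25, adjusted p = 0.00168) were the annexin and the binding partner past the threshold, both lower in MHCIIhi. Without Ly6Chi MHCIIhi ctrl replicate 1 these were -1.23 (adjusted p = 0.00187) and -1.12 (adjusted p = 3e-05), and Anxa2 also passed (-0.59, adjusted p = 0.0398).

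Genes of the plasminogen system, whose proenzyme the S100A10 complex holds at the cell surface, also split. Plaur, the receptor of urokinase, averaged 927 CPM in Ly6Chi MHCIIlo, 730 in Ly6Chi MHCIIhi, 362 in Ly6Clo MHCIIhi and 407 in Ly6Clo MHCIIlo, and was lower in Ly6Clo MHCIIhi than in Ly6Chi MHCIIlo by -1.37 (SE 0.12, adjusted p = 1.50e-10). Plau, which encodes urokinase, went the other way at 50.5, 88.5, 210 and 159 CPM, with a log2 difference of 2.06 (SE 0.23, adjusted p = 1.67e-08). Serpinb2, an inhibitor of urokinase, was lower by -3.98 (SE 0.34, adjusted p = 4.72e-11). Of 5 tested genes of that list 2 were lower and 1 was higher, with a median of 0.16, beside 21% and 21.3% of all genes. Beside the same shares, of 5 receptors reported for S100 proteins 2 were lower, Emb (-0.68, adjusted p = 1.78e-05) and Tlr4 (-1.04, adjusted p = 0.000308), and 2 were higher, Cd36 (1.29, adjusted p = 0.0054) and Bsg (0.31, adjusted p = 0.0494), with a median of -0.28. Between the 2 MHCIIlo populations 2 of 5 plasminogen genes were higher in Ly6Clo and 1 was lower (median -0.28), beside 19.3% and 18.2% of all genes, and the counts for the receptors were the same (median 0.40), with Cd36 at 3.52 (adjusted p = 4.58e-10). In the list of other S100 family genes, which also holds S100pbp, not itself an S100 gene, 12 of the 13 listed genes were in the table and 4 were tested. S100a8 (-5.05, adjusted p = 8.29e-14), S100a9 (-5.32, adjusted p = 3.23e-14) and S100a13 (-0.33, adjusted p = 0.00552) were lower in Ly6Clo MHCIIhi than in Ly6Chi MHCIIlo. Between the 2 MHCIIlo populations S100a13 alone passed among these 4 (-0.70, adjusted p = 0.000181), where all 4 genes described here were lower.

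Labelled ko was then compared with labelled ctrl in each population by the same test, and no S100 gene described here passed in any of the 4 populations, by edgeR or by DESeq2. In Ly6Chi MHCIIlo the log2 differences were 0.16 for S100a4 (SE 0.18, 95% interval -0.22 to 0.54), 0.27 for S100a6 (SE 0.15, -0.05 to 0.58), 0.54 for S100a10 (SE 0.15, 0.21 to 0.87) and 0.39 for S100a11 (SE 0.16, 0.05 to 0.73). The unadjusted p was 0.0032 for S100a10 and 0.0269 for S100a11, and after adjustment over 3966 genes they were 0.227 and 0.393. S100a10 was higher in each of 4 ko replicates (1360 to 2055 CPM) than in each of 4 ctrl replicates (1129 to 1328 CPM), as 3.18% of genes were. In that comparison 0.0756% of genes passed, all lower in ko, and 444 had an unadjusted p under 0.05. Among the same samples the 16 epithelial genes summed to 309 to 1155 CPM in ctrl and 860 to 1338 CPM in ko, and their part in the S100a10 values was not tested.

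In Ly6Chi MHCIIhi all 4 genes were on average higher in ko, and the size depended on 1 library. The log2 differences were 0.77 for S100a4 (SE 0.55, 95% interval -0.43 to 1.96), 0.35 for S100a6 (SE 0.34, -0.39 to 1.09), 0.73 for S100a10 (SE 0.36, -0.05 to 1.52) and 0.37 for S100a11 (SE 0.27, -0.23 to 0.96), with adjusted p between 0.709 and 0.856. Without ctrl replicate 1 they were 0.32, 0.11, 0.39 and 0.28. The ko and ctrl replicates did not overlap for S100a6, S100a10 and S100a11, but this was so for 10.7% of 3509 genes in the same direction, and with 3 ctrl replicates of which 1 stands apart little can be read from it. There 0% of genes passed by edgeR (245 at an unadjusted p under 0.05), and 4 passed by DESeq2.

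In Ly6Clo cells the genotype differences were near 0 or within the spread of the replicates. In Ly6Clo MHCIIhi, with 8 replicates each, they were 0.03 for S100a4 (95% interval -0.39 to 0.45), 0.04 for S100a6 (-0.23 to 0.31), -0.18 for S100a10 (-0.51 to 0.15) and -0.04 for S100a11 (-0.34 to 0.25), with adjusted p of at least 0.974. All 4 intervals leave out a difference of 1.5-fold in either direction, and this was the comparison with the most replicates. Here 0% of 5660 genes passed by either tool, and 296 had an unadjusted p under 0.05 by edgeR. This population has both barcode classes in both genotypes, and the differences were 0.08, 0.09, -0.27 and -0.10 in A/T-rich libraries alone and 0.04, -0.17, -0.14 and 0.06 in G/C-rich libraries alone. In Ly6Clo MHCIIlo they were 0.22 for S100a4 (-0.26 to 0.71), 0.35 for S100a6 (-0.16 to 0.87), 0.20 for S100a10 (-0.16 to 0.56) and 0.39 for S100a11 (-0.04 to 0.82), with adjusted p of 0.999, while 0.0314% of 3182 genes passed. The highest S100a6 and S100a11 values there came from ko replicate 3, which also had the highest neutrophil sum of the group (28553 CPM). Neutrophil genes summed to 5804 to 13122 CPM in ctrl and 9312 to 28553 CPM in ko of this population, and their part in the values was not tested.

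**Figure D5:**
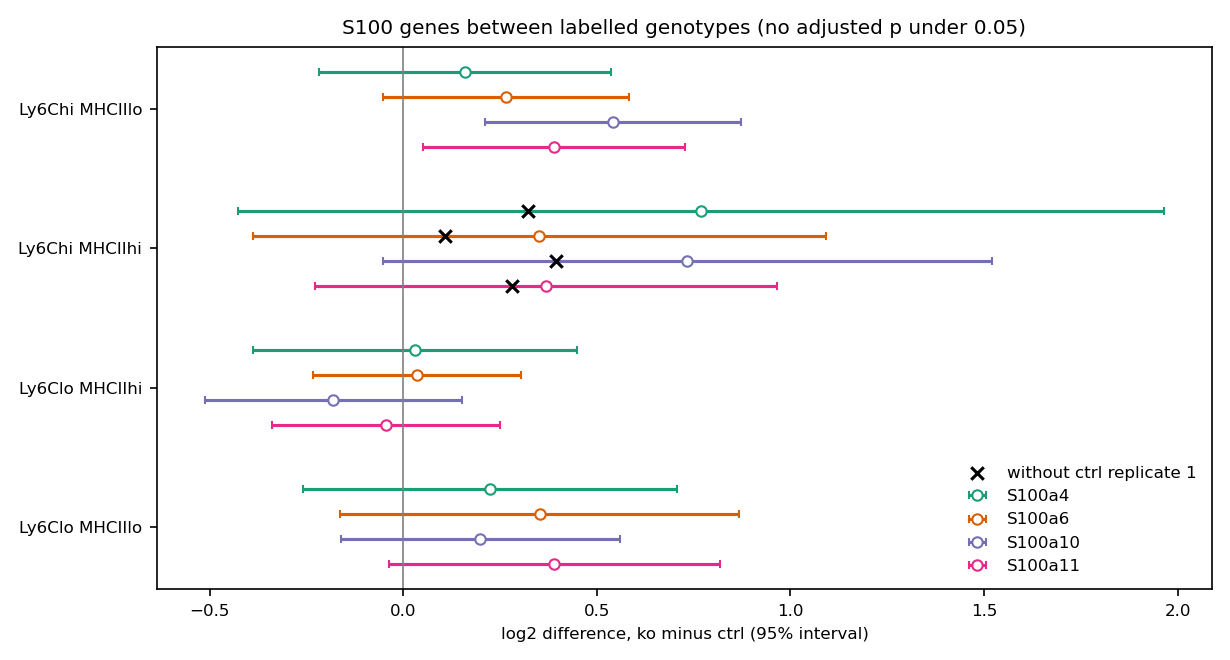
Log2 difference, ko minus ctrl (x axis), of the 4 S100 genes in each population with 95% intervals, open circles for an adjusted p of at least 0.05, and crosses for Ly6Chi MHCIIhi without ctrl replicate 1. No point passed, the widest intervals are those of Ly6Chi MHCIIhi, and all crosses lie nearer 0 than their circles.

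Whether the genotype difference itself differed between populations was tested with 3 interaction coefficients at the same time. None of the 4 genes passed, beside 0.0663% of 6032 genes. In simulated data this test called 14 of 100 genes changed by 1 log2 unit in Ly6Chi MHCIIlo ko. S100a10, whose difference was above 0 in both Ly6Chi populations and in Ly6Clo MHCIIlo and below 0 in Ly6Clo MHCIIhi, had the lowest p (unadjusted p = 0.0078, adjusted p = 0.616). S100a11, S100a4 and S100a6 had adjusted p of 0.832, 0.911 and 0.953. Over the leave-outs of 1 replicate the adjusted p of S100a10 ran from 0.0781 to 0.989, the latter without Ly6Chi MHCIIhi ctrl replicate 1.

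Repeat libraries showed how far a value moved between 2 libraries of the same replicate. In Ly6Clo MHCIIhi 8 replicates had a second library, and the higher CPM of a pair over the lower had a median of 1.23 for S100a4, 1.12 for S100a6, 1.10 for S100a10 and 1.09 for S100a11, and at most 1.5 for any of them. In the 5 replicates with 1 library of each barcode class, G/C-rich minus A/T-rich libraries differed by 0.06 for S100a4 (SE 0.12), 0.11 for S100a6 (SE 0.07), 0.02 for S100a10 (SE 0.09) and 0.05 for S100a11 (SE 0.07) on the log2 scale. None of these passed, beside 1.8% of 4945 genes, most of which were lower in G/C-rich libraries (82 of 89).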

How the data were processed

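Sorted cells were sequenced from the 3′ ends of poly(A) RNA, and the authors deposited 1 table of counts per gene for 48 libraries. Per the submitters' processing notes, GRCm38, R 3.4.4 and DESeq2 1.18.1 were used, and for the aligner and the counter, names were not given in the sources used here. Whether a count is a read or a molecule is not stated. The SEs and intervals come from the spread between replicates. The members and lists were chosen with earlier results of these data known.

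Groups came from the labels. Libraries of 1 replicate were summed, 1 library of 8409 counts (under 0.1 of the median total of 280060.5) was left out, and a row that names no gene (0.000967% of counts) was removed. Kept replicates held 2 to 521 counts of S100a4, 68 to 2164 of S100a6, 16 to 648 of S100a10 and 49 to 1110 of S100a11. Levels are CPM over TMM-scaled library sizes (edgeR 4.0.16, R 4.3.3).

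Each comparison used edgeR's quasi-likelihood test on the counts of its own groups, with filterByExpr (minimum count 10, minimum total 15), Benjamini-Hochberg adjustment over all genes and a threshold of 0.05. Population comparisons had genotype as a term, and the interaction of the 2 was fitted over all 8 groups. The code was run on simulated data with 100 genes changed by 1 log2 unit, at a set spread that is not that of these data. Between genotypes it called 26 of them in Ly6Chi MHCIIhi, 46 in Ly6Chi MHCIIlo, 78 in Ly6Clo MHCIIhi and 49 in Ly6Clo MHCIIlo. Between populations it called 63 to 86, and for the interaction 14. Likeness was Pearson's r of log2(CPM + 1), with predicted genes left out. The text names the 4 genes, up to 3 called genes per list and direction, and the 5 most similar genes of each member. Anxa2, Ahnak, Cacybp, Myh9, Anxa1, Plau and Plaur were given levels after their values were seen. A barcode of 6 bases with 3 or more G or C was called G/C-rich.

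Alternatives were DESeq2 1.42.0, no filter on low counts, all 8 groups in 1 fit, replicate number as a block, 1 library per replicate, 1 barcode class, all libraries kept and each replicate left out. Leaving out replicates under 100000 counts was chosen after seeing the data, as was the fit of list genes without Ly6Chi MHCIIhi ctrl replicate 1. Samples of equal number were not taken as pairs, except in the fit with the replicate number as a block. S100a10 is not among the promoters printed, and its window was not used here.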

Additional observations from a re-analysis of the deposited data

Results flagged for a closer look

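Dixon's test was run for each of the 4 genes in the 7 groups of 4 to 8 replicates, which makes 28 tests, and in 4 of them 1 replicate lay far from the others. Chance alone marks about 1 in 20 independent tests, and these are not independent because the genes vary together. S100a4 was 141 CPM in Ly6Clo MHCIIlo ko replicate 2, below the other 3 replicates (186 to 195 CPM). S100a6 was 3478 CPM in Ly6Chi MHCIIlo ctrl replicate 2, below the other 3 (4258 to 4362 CPM), and that replicate also had the lowest S100a4 (874 CPM) and S100a10 (1129 CPM) of its group. S100a11 was 1750 CPM (1749.59) in Ly6Chi MHCIIhi ko replicate 2, below the other 3 (1876 to 1898 CPM), a small gap in a group that varied little. S100a11 was 1711 CPM in Ly6Clo MHCIIlo ko replicate 3, above the other 3 (1014 to 1061 CPM), and this replicate also had the highest S100a6 (2558 CPM), a neutrophil sum of 28553 CPM and an epithelial sum of 1411 CPM, whose part in these values was not tested.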

How the results depend on the processing

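Over all alternatives, the differences of the 4 genes kept their direction and side of the threshold in 868 values, lost their call in 50, gained one in 5 and changed sign in 21, all of the last with values near 0. The 184 adjusted p of the interaction stayed above the threshold. The differences of both Ly6Clo populations from Ly6Chi MHCIIlo were past the threshold for all 4 genes under each alternative run. No S100 gene described here passed between genotypes under any of them. The cause of the changes was not tested, except that fits within 1 genotype have fewer samples. Counts ran lowest for S100a4, with 2 in Ly6Chi MHCIIhi ctrl replicate 1 (78264 counts in total). A shallower replicate of that group, ctrl replicate 3 (34362 counts in total), held 32.

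Counts of all genes past the threshold moved as follows. With no count filter they were 1.1e+02 (Ly6Chi MHCIIhi), 61 (Ly6Chi MHCIIlo), 57 (Ly6Clo MHCIIhi) and 24 (Ly6Clo MHCIIlo) between genotypes, 303 between the Ly6Chi populations and 112 for the interaction. By DESeq2 they were 4, 14 and 2 for the genotypes in Ly6Chi MHCIIhi, Ly6Chi MHCIIlo and Ly6Clo MHCIIlo, and 11 for the interaction. With all 8 groups in 1 fit they were 36 in Ly6Chi MHCIIhi, 2 in Ly6Clo MHCIIhi and 0 in Ly6Clo MHCIIlo. Without replicates under 100000 counts there were 4 in Ly6Chi MHCIIhi and 0 for the interaction, which had 1 with all libraries kept. Within ctrl and A/T-rich barcodes there were 0 between the Ly6Chi populations, 292 between the Ly6Clo populations, 57 for Ly6Clo MHCIIhi and 31 for Ly6Clo MHCIIlo against Ly6Chi MHCIIhi, and 1162 and 766 against Ly6Chi MHCIIlo. Within ko and G/C-rich barcodes there were 66 between the Ly6Chi and 415 between the Ly6Clo populations, 1148 for Ly6Clo MHCIIhi and 873 for Ly6Clo MHCIIlo against Ly6Chi MHCIIlo, and G/C-rich libraries gave 2 between genotypes in Ly6Clo MHCIIhi.

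Of the 4 S100 genes, 2 passed between the Ly6Chi populations with no filter or without shallow replicates, 3 by DESeq2 and 0 within ctrl. Within ctrl 0 passed between the Ly6Clo populations and for either against Ly6Chi MHCIIhi. The ctrl fits that use Ly6Chi MHCIIhi include its ctrl replicate 1. For Ly6Clo MHCIIlo against Ly6Chi MHCIIhi 2 passed with no filter or all libraries kept, and for Ly6Clo MHCIIhi S100a11 missed with no filter (adjusted p = 0.076).

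Leaving out 1 replicate at a time gave 0 to 28, 0 to 8 and 0 to 6 genes between genotypes in Ly6Chi MHCIIhi, Ly6Chi MHCIIlo and Ly6Clo MHCIIlo, 71 to 220 between the Ly6Chi populations, 0 to 86 for the interaction and 53 to 98 for barcode class. It gave 0 to 2 of the S100 genes between the Ly6Chi populations and 2 to 4 for Ly6Clo MHCIIlo against Ly6Chi MHCIIhi. Genotype differences in Ly6Clo MHCIIhi ran from -0.120 to 0.130 for S100a4, from -0.0542 to 0.0905 for S100a6 and from -0.128 to 0.0209 for S100a11. S100a11 between the Ly6Clo populations ran from -0.180 to 0.0196, barcode class from -0.0842 to 0.167 for S100a4 and from -0.0398 to 0.0753 for S100a10, and Ccl17 in Ly6Chi MHCIIhi from -1.91 to 0.483. In Ly6Clo MHCIIhi, library 1 alone gave genotype differences of -0.0157 for S100a4 and -0.0312 for S100a6, and G/C-rich libraries -0.165 for S100a6 and 0.0579 for S100a11. Between the Ly6Clo populations S100a11 was 0.0550 within ctrl and S100a10 was -0.0083 within ko.

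With the replicate number as a block, 712 genes passed between the Ly6Clo populations, 445 for Ly6Clo MHCIIhi against Ly6Chi MHCIIhi and 4 between genotypes in Ly6Clo MHCIIlo. S100a4 then missed in Ly6Clo MHCIIhi against Ly6Chi MHCIIhi (-1.12, adjusted p = 0.0514), its genotype difference in Ly6Clo MHCIIhi was -0.0049, and no other call of the 4 genes changed. In no comparison did every same-numbered pair deviate together beyond a correlation of 0.1. Between the Ly6Chi populations 4 of 7 pairs did (all pairs from 0.063 to 0.237). For Ly6Clo MHCIIhi against Ly6Chi MHCIIhi 0 of 7 did (-0.082 to 0.082). Differently numbered pairs were not compared, so these values cannot decide whether equal numbers name the same animal.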

Other observations

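The list of other S100 family genes summed to 3842 to 22304 CPM in Ly6Clo MHCIIlo and to 474 to 1480 CPM in Ly6Clo MHCIIhi. The 4 genes described here summed to 2347 to 4896 CPM and 2024 to 4147 CPM in the same populations. S100a8 and S100a9 made the difference, at log2 differences of -4.96 and -5.52 for Ly6Clo MHCIIhi against Ly6Clo MHCIIlo. S100a13 was higher in Ly6Clo MHCIIhi by 0.43 in that comparison. S100a1 was higher in Ly6Clo MHCIIhi than in Ly6Chi MHCIIhi by 0.75, and by 0.70 (adjusted p = 0.0197) without Ly6Chi MHCIIhi ctrl replicate 1.

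Marker genes of lymphocytes, dendritic cells and red cells were also summed. The 7 B and plasma cell genes summed to 48.0 to 27176 CPM in Ly6Clo MHCIIhi ctrl, 59.4 to 4646 CPM in Ly6Clo MHCIIhi ko and 68.1 to 12804 CPM in Ly6Chi MHCIIhi ko. The 6 T cell genes present in the table summed to 16.9 to 293 CPM in any replicate. The 9 dendritic cell genes summed to 174 to 517 CPM in Ly6Clo MHCIIhi and to 26.5 to 199 CPM elsewhere. Genes of red cells were 59.6 to 1329 CPM in Ly6Clo MHCIIlo ctrl and 1516 to 6530 CPM in ko.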
